A study of Mus musculus with 10 samples.

Results

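The crystallins were followed through optic nerve heads of mice, the place where retinal axons leave the eye. The set holds 9 genes, chosen by exact gene symbol in the probe annotation: Cryab, which glia express, and 8 crystallins best known from the lens (Cryaa, Cryba1, Cryba2, Cryba4, Crybb1, Crybb2, Crybb3 and Crygs). All 9 were found, on 11 of 22690 probe sets, 3 of them for Cryab and 1 for each lens-type gene. They are 9 of the 12393 genes tested. Tissue came from C57Bl/6 male mice aged 6 to 8 weeks. In each animal the right eye was cannulated in the anterior chamber and held at 30 mmHg for 1 h, and its nerve head was taken 3 days later, while the left eye had no operation and gave the control tissue. Each array carried RNA from a pool of 2 nerve heads, and there were 5 arrays per group from a total of 10 mice. Pressure, cannulation and body side cannot be told apart, and the labels do not say whether equal replicate numbers are the same animals.

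Crystallins are the abundant soluble proteins of the lens, where they keep the tissue clear. The alpha crystallins, Cryaa and Cryab, belong to the small heat shock proteins, chaperones that hold partly unfolded proteins in solution. Cryab is also made by astrocytes, oligodendrocytes and muscle, and it is known for its rise in stressed glia. The beta and gamma crystallins form a separate family of compact proteins with no relation in structure to the alpha type, and several of them are transcribed in the retina as well as in the lens.

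Promoters of some lens-type genes are shown, because the lens-type genes split into those that were high on 1 array, described further on, and those that were not. RefSeq (GRCm38.p6) listed a promoter for 8 of the 9 genes, all but Cryab. In the 250 bases before each listed start, 3 sets of letters were searched on both strands. TGCTGA is the core of the Maf recognition element, bound by lens factors of the Maf family. TATAAA is the core promoter box named for its letters. GAANNTTC is a form of the heat shock element, and other forms were not searched. Capitals mark the matches, and a match on the opposite strand reads TCAGCA for the Maf element. The first 4 genes were highest on control replicate 5, and Crybb1 was not. Cryba2 was also highest on that array, and its promoter is not printed.
Cryaa, chr17:31677681-31677930, plus strand: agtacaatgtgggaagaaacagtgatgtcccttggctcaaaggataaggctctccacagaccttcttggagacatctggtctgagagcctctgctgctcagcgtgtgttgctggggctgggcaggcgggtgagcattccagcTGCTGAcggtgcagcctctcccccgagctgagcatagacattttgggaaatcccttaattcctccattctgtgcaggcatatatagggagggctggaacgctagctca
Cryba1, chr11:77725294-77725543, minus strand: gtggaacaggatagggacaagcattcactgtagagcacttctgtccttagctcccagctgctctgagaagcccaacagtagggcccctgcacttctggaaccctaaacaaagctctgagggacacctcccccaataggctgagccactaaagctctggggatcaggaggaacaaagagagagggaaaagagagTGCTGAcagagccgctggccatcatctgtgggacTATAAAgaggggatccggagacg
Crybb2, chr5:113070118-113070367, minus strand: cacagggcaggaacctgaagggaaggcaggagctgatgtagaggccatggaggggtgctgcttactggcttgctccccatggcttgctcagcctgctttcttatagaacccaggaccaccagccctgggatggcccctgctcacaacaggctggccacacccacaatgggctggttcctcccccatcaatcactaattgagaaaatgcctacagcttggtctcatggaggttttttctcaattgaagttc
Crygs, chr16:22811411-22811660, minus strand: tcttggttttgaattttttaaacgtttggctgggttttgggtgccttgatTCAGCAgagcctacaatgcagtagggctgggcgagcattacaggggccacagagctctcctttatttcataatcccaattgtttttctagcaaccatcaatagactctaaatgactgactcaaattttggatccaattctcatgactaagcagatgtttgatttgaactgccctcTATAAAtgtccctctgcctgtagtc
Crybb1, chr5:112255570-112255819, plus strand: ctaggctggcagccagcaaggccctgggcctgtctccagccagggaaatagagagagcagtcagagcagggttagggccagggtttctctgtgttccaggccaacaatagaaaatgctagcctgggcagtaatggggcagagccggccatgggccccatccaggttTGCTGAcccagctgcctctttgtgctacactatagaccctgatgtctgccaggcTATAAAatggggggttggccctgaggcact
The letters TGCTGA were found in 7 of 8 crystallin promoters, against 16.1% of 32851 promoters of the same length, with Crybb2 as the exception. Cryba4 had 3 matches. TATAAA was found in Cryba1, Crybb1 and Crygs, 3 of 8, against 12.4% of all promoters, and GAANNTTC in 0 of 8, against 6.69%. The letters did not follow the split, since Crybb1 held the same kinds of match as Cryba1 and Crygs.

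The values are probe set signals on a linear scale, and differences were computed on the scale log2(signal + 16), which understates changes of dim genes. No detection calls were used, so dim probe sets may not exceed background. The words bright and dim describe probe set signal only and do not rank transcript amounts between genes. The nerve head glia were plainly present: the astrocyte gene Gfap ran from 10644 to 12631 and the myelin gene Mbp from 13490 to 15433 over the 10 arrays. The least typical array was elevated pressure replicate 1, whose correlation with the others averaged 0.974, where the remaining arrays had 0.986 to 0.989. Control replicate 5 was typical in this measure, at 0.989, but not in its lens-type crystallins. In pooled tissue, fewer cells of a type and less RNA per cell cannot be told apart.

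Cryab had a bright probe set whose signal varied little between arrays. Its main probe set read 11427, 11400, 10956, 10505 and 10895 in control replicates 1 to 5. In elevated pressure replicates 1 to 5 it read 10092, 10970, 10456, 10333 and 10366. The groups overlapped, with elevated pressure replicate 2 inside the control range and the other 4 elevated pressure arrays below every control array. The highest array was 1.13-fold above the lowest. Only 1.40% of genes had a narrower span. The signals of the table end at 20168, and whether differences are compressed so high in the range was not tested.

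Control tissue had a mean Cryab signal of 11036 ± 385 (SD, n = 5), and elevated pressure tissue one of 10443 ± 324 (SD, n = 5). The log2 fold change was -0.08 (standard error 0.0645, interval -0.22 to 0.06 at 95%), and it was not called by limma, the model fitted over all genes (adjusted p = 0.849, unadjusted p = 0.244). A two-sided exact permutation test of this gene alone gave p = 0.0397, where the smallest possible value is 0.00794. Limma's standard error borrows the spread of other genes, and the within-group SD of Cryab, 0.0474 on the log2 scale, was among the smallest, with 0.670% of genes below it. The interval corresponds to 0.858-fold to 1.04-fold.

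The other Cryab probe sets had values in the same direction. The first, also bright, had means of 7968 ± 692 (SD, n = 5) and 7151 ± 678 (SD, n = 5) and a log2 fold change of -0.16, with a limma adjusted p of 0.837 over all probe sets. The third was dim, with means of 100 ± 22.8 (SD, n = 5) and 97.3 ± 23.5 (SD, n = 5) and a log2 fold change of -0.04. On all 3 probe sets the lowest of the 10 arrays was elevated pressure replicate 1. On that array the mean level of 10 oligodendrocyte genes was also the lowest, at -0.84 on the centred log2 scale against -0.17 to 0.42 on the other arrays, and that of 11 astrocyte genes was -0.08. The part of myelin content in the Cryab values was not tested. Without that array the log2 fold change of Cryab was -0.07.

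**Figure D1:**
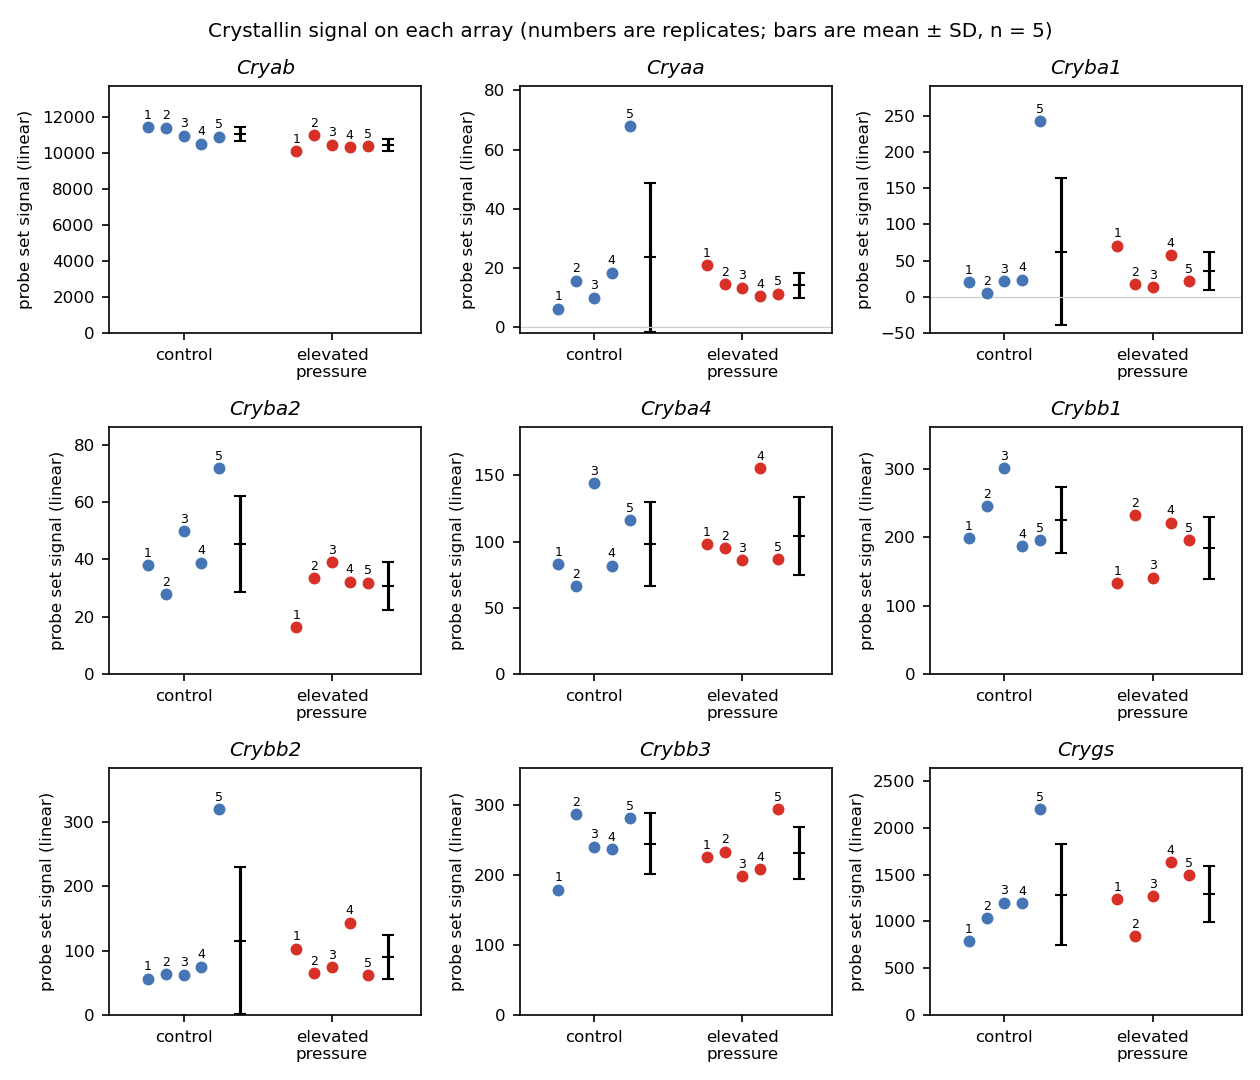
Linear probe set signal of the 9 crystallins on each array, control in blue and elevated pressure in red, with replicate numbers above the points and black bars for the mean ± SD (n = 5). Cryab stays between 10092 and 11427, while Cryaa, Cryba1, Cryba2, Crybb2 and Crygs are highest on control replicate 5.

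The lens-type crystallins were dim to moderate in signal, and several spread far between arrays of the same group. Cryaa, the lens partner of Cryab in alpha crystallin, read 6.32, 15.8, 9.97, 18.5 and 67.9 in control replicates 1 to 5. It read 21.0, 14.5, 13.4, 10.5 and 11.4 in elevated pressure replicates 1 to 5. Control replicate 5 was 3.23-fold above the next array, and the other 9 lay near the bottom of the signal range.

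Cryba1, which encodes both the A1 and A3 forms of beta crystallin, had the widest spread of the 9 genes. Control replicates 1 to 5 read 19.6, 4.84, 21.0, 23.6 and 243. Elevated pressure replicates 1 to 5 read 70.7, 16.7, 13.1, 57.2 and 21.2. Control replicate 5 was highest by a factor of 3.44, and elevated pressure replicates 1 and 4 came next. On the log2(signal + 16) scale the span was 12.4-fold, wider than in 99.7% of genes, where the median gene spanned 1.62-fold.

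Crybb2, a basic beta crystallin known from lens, retina and brain, showed the same high array. It read 56.6, 63.6, 62.6, 74.8 and 320 in control replicates 1 to 5, and 103, 65.2, 74.3, 143 and 61.4 in elevated pressure replicates 1 to 5. The first 4 control arrays lay close together, control replicate 5 was 2.23-fold above the next array, and elevated pressure replicates 4 and 1 followed it as in Cryba1, in the opposite order. Its span of 4.62-fold was wider than in 97.7% of genes.

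Crygs, the gamma S crystallin of the lens cortex, was highest on the same array. It read 787, 1036, 1202, 1193 and 2201 in control replicates 1 to 5. It read 1237, 840, 1274, 1631 and 1495 in elevated pressure replicates 1 to 5. Control replicate 5 was 1.35-fold above elevated pressure replicate 4, but the remaining arrays varied more evenly than in Cryba1 and Crybb2. Its span was 2.76-fold, wider than in 90.6% of genes.

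The 4 remaining beta crystallins did not share one pattern. Cryba2, an acidic beta crystallin, ran from 27.8 to 71.9 in control and from 16.4 to 39.1 in elevated pressure tissue, highest on control replicate 5 and lowest on elevated pressure replicate 1. Cryba4, another acidic member, ran from 66.2 to 144 and from 85.9 to 155, and its highest arrays were elevated pressure replicate 4 and control replicate 3. Crybb1, a basic member of the lens fibre, ran from 187 to 301 and from 133 to 232, and its highest array was control replicate 3. Crybb3 ran from 179 to 287 and from 198 to 294, with the highest signal on elevated pressure replicate 5, and its span of 1.59-fold was close to that of the median gene.

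Control replicate 5 was thus the highest of the 10 arrays for 5 of the 9 crystallins, where it was highest for 4.78% of all genes. This array was singled out after its values were seen, so the ranks that follow describe it and are no test. Against the mean of the other 9 arrays it was higher by 2.71 on the log2 scale for Cryba1, the 5th largest excess among 12393 genes. The excess was 1.88 for Crybb2 (rank 13), 1.52 for Cryaa (rank 19), 0.92 for Crygs (rank 52) and 0.83 for Cryba2 (rank 67). For Cryba4, Crybb3 and Crybb1 it was 0.23, 0.26 and -0.03, and for Cryab 0.02. On no other array was a member among the 100 genes of largest excess. The nearest were Cryba1 on elevated pressure replicate 1 (0.95, rank 121), Crybb1 on control replicate 3 (0.61, rank 184), and Crybb2 on elevated pressure replicate 4 (0.68, rank 245).

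The gamma crystallins outside the set, which are the crystallins most confined to lens fibre cells, went with this array too. Of 7 further lens crystallin names 5 were measured, and control replicate 5 was the highest of 10 arrays for 4 of them. Crygf read 126 there and 10.1 to 28.6 elsewhere, Crygb 220 against 30.0 to 71.1, and Crygd 181 against 31.7 to 58.5. Cryga read 69.8 against 21.2 to 37.4. Crygn, a more distant relative, was not raised, at 44.0 with a range from 42.3 to 78.7.

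The other lens fibre cell genes that were measured, all of them dim, did not go with this array. Of 12 names of lens fibre genes other than crystallins 4 were measured, and control replicate 5 was the highest array for 0 of them. Mip, the water channel of the lens fibre, read 18.9 on this array, with 17.6 to 58.2 on the others. Bfsp1, the fibre cell filament protein filensin, read 75.4 with a range from 51.2 to 117, Gja3, a lens connexin, 17.6 with a range from 7.52 to 38.9, and Dnase2b, the nuclease of fibre maturation, 27.3 with a range from 13.6 to 76.7. The summed level of these 4 genes, as the mean centred log2 value, ran from -0.18 to 0.21 in control and from -0.31 to 0.38 in elevated pressure arrays, and control replicate 5 held the lowest control value.

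Photoreceptor markers did not single out this array, while several retinal pigment epithelium markers were lowest on it. The mean centred log2 level of 19 photoreceptor genes was 0.02 on control replicate 5, the fifth of 10 values between -1.13 and 1.25. Elevated pressure replicate 4, the second highest array for Crybb2 and Crygs, stood at 1.22, while control replicate 4, with the highest photoreceptor level, had a Crybb2 signal of 74.8. The level of 9 pigment epithelium and melanocyte genes was lowest on control replicate 5, at -0.80. Rpe65, the isomerase of the visual cycle, read 87.5 there and 305 to 2185 elsewhere, and with a log2 difference of -2.87 from the other arrays it was the lowest of all 12393 genes on this array. Rgr, an opsin of the pigment epithelium, and Lrat, which esterifies retinol, differed by -2.43 and -2.01, and Rdh5 and Ttr were also at their lowest of 10. The remaining measured genes of this list, Tyr, Tyrp1, Dct and Pmel, were not low there, with differences from 0.19 to 0.35. The level of 12 inner retina genes was -0.31, the ninth of 10, with Pcp2, Calb2 and Slc17a6 at their lowest. The part of these differences in the crystallin values was not tested. Of 12 measured transcription factors of lens development, control replicate 5 was highest for 1, Sox2, at 4501 against 2383 to 4298. The level of these factors on control replicate 5 was 0.07, the fifth of 10.

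**Figure D2:**
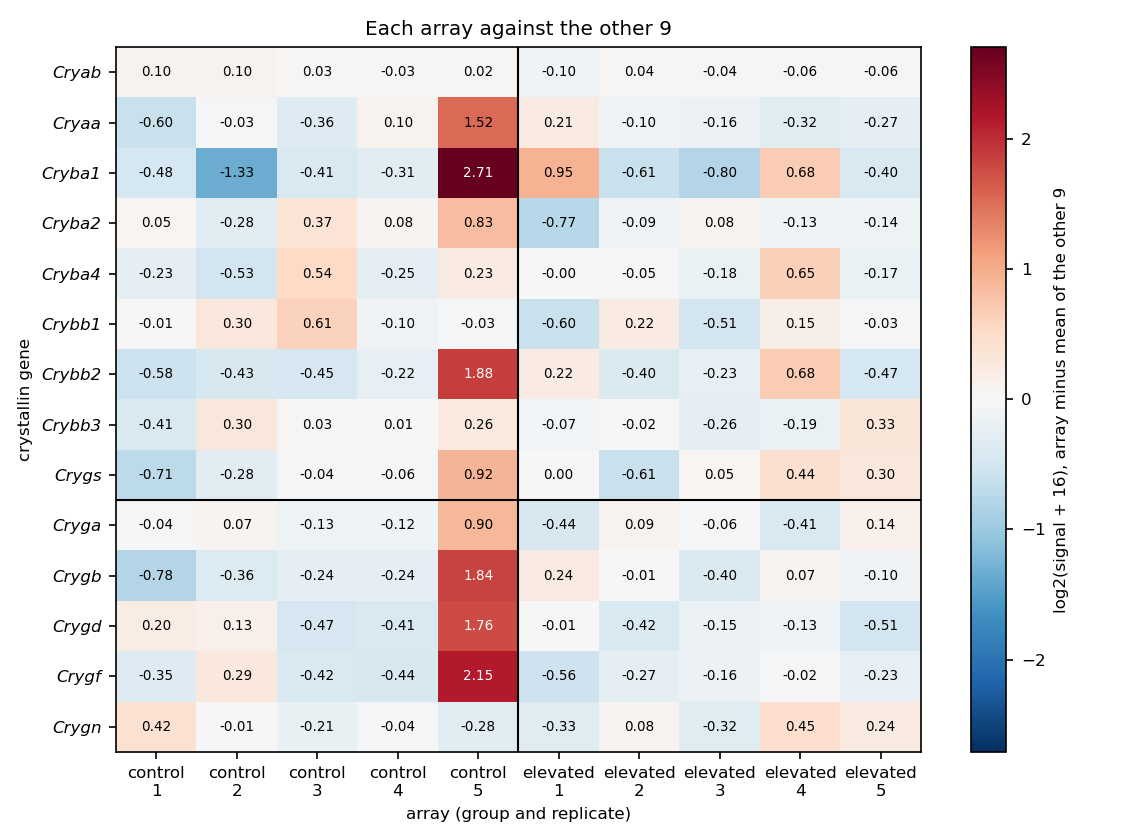
Difference of each array from the mean of the other 9 in log2(signal + 16), for the 9 crystallins above the black line and 5 further lens crystallins below it, with control arrays left and elevated pressure arrays right of the vertical line. The values of control replicate 5 stand out in Cryaa, Cryba1, Crybb2, Crygb, Crygd and Crygf, from 1.52 to 2.71, while Cryab stays between -0.10 and 0.10 on every array.

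**Figure D3:**
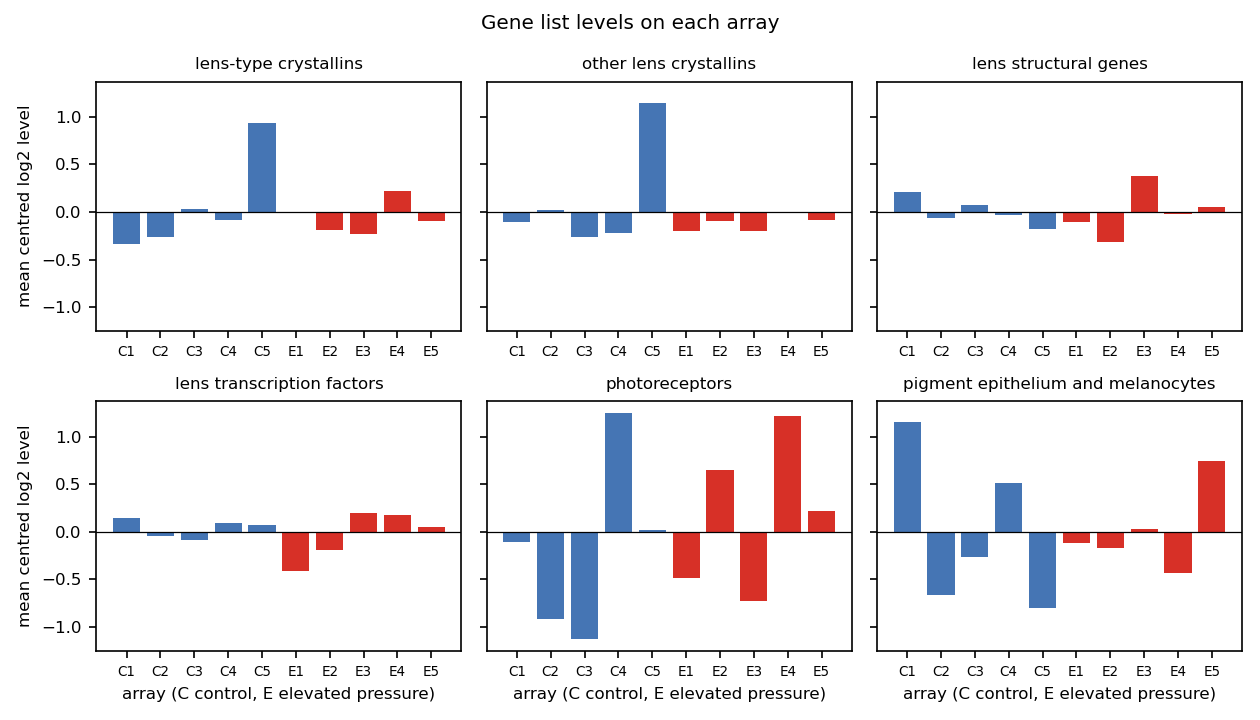
Mean centred log2 level of 6 gene lists on each array, C1 to C5 for control and E1 to E5 for elevated pressure. The 2 crystallin lists are highest on control replicate 5, at 0.94 and 1.15, while the level of the lens structural genes there is -0.18 and that of photoreceptors 0.02.

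The comparison of the groups asks whether crystallin expression differed 3 days after the rise in pressure, and no crystallin was called. By limma 0 of 9 passed an adjusted p of 0.05, where 0% of all genes did, and 0 of 9 passed an unadjusted p of 0.05, where 3.97% of all genes did. By the exact permutation test, 1 of 9, Cryab, had a p under 0.05, where 4.24% of all genes did. In 0 of 9 did the groups fail to overlap, against 0.629% of all genes. Of the 8 lens-type genes 6 had a lower and 2 a higher mean in elevated pressure tissue, with a median log2 fold change of -0.07, while 52.7% of all genes were lower with a median of -0.01.

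The lens-type gene with the smallest p was Cryba2, with a control mean of 45.3 ± 16.8 (SD, n = 5) and an elevated pressure mean of 30.6 ± 8.45 (SD, n = 5). The log2 fold change was -0.38 (standard error 0.193, limma adjusted p = 0.849), and leaving out 1 array gave -0.49 to -0.24. The extremes came without control replicate 2, where Cryba2 passed an unadjusted but not an adjusted limma p of 0.05 (adjusted p = 0.961), and without control replicate 5. Without replicate 2 of both groups it stood at -0.51 and likewise passed before adjustment. Crybb1 had means of 226 ± 47.9 (SD, n = 5) and 185 ± 45.6 (SD, n = 5) and a log2 fold change of -0.28 (standard error 0.178, limma adjusted p = 0.849). Leaving out 1 array gave -0.36, without elevated pressure replicate 2, to -0.18, without control replicate 3. Both genes were dim, and neither difference passed an adjusted limma p of 0.05.

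For Cryaa, Cryba1 and Crybb2, which were high on control replicate 5, this array set the direction. The log2 fold change was -0.07 for Crybb2 with all arrays and 0.34 without it, -0.07 and 0.54 for Cryba1, and -0.23 and 0.08 for Cryaa. Crygs and Cryba2, also highest on this array, kept their signs. Crygs went from 0.06 to 0.28, and Cryba2 from -0.38 to -0.24. None was called without the array, where the lowest limma adjusted p over all genes was 0.813. Without control replicate 5 the control mean of Crybb2 was 64.4 ± 7.61 (SD, n = 4) and that of Cryba1 17.3 ± 8.44 (SD, n = 4), against elevated pressure means of 89.5 ± 34.3 (SD, n = 5) and 35.8 ± 26.3 (SD, n = 5). Elevated pressure replicates 1 and 4 were the high arrays of that group in both genes. Leaving out elevated pressure replicates 2, 3 or 5 also turned Cryba1 to 0.06, 0.11 or 0.02, and 2 or 5 turned Crybb2 to 0.01 or 0.03.

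The direction of Cryba4 and Crygs rested on single arrays as well. Cryba4, at 0.09 with all arrays, stood at -0.02 when control replicate 2 was left out and -0.05 when elevated pressure replicate 4 was. Crygs, at 0.06, stood at -0.09 when control replicate 1 was left out and -0.03 when elevated pressure replicate 4 was. Crybb3 had a log2 fold change of -0.07 with an interval from -0.38 to 0.24, and it stood at -0.17 without control replicate 1 and -0.011 without control replicate 2. For 8 of 9 crystallins the 95% interval lay within 2-fold in both directions, as it did for 95.5% of all genes. The exception was Cryba1, whose interval ran from 0.378-fold to 2.42-fold. The count depends on the 16 added before the log: with 1 added it was 5 of 9, Cryaa, Cryba2 and Crybb2 also reaching beyond 2-fold, against 88.3% of all genes.

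**Figure D4:**
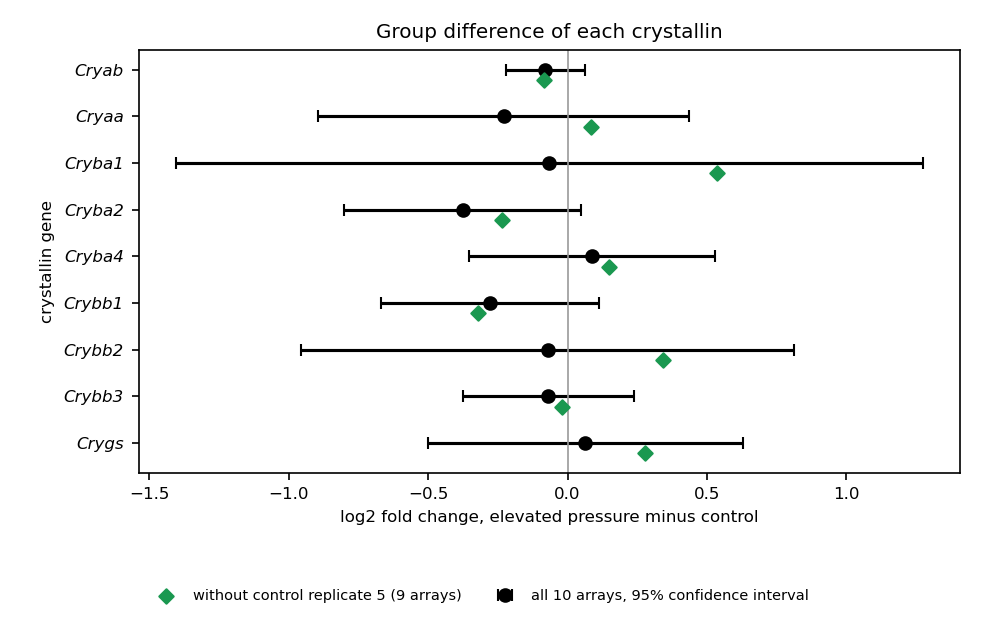
Log2 fold change of each crystallin, elevated pressure minus control, with 95% confidence intervals from limma on all 10 arrays (black) and the value without control replicate 5 (green diamonds). Every interval includes 0, and Cryaa, Cryba1 and Crybb2 change sign without that array.

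The small heat shock proteins, the family of the alpha crystallins, gave no call. Of 10 names of the family and its partners 7 were measured, 5 with a higher and 2 with a lower mean in elevated pressure tissue, and 0 were called by limma or passed an unadjusted p of 0.05. The median log2 fold change was 0.03. Hspb1, the stress-induced HSP25 of mice, had means of 5048 and 5571 and a log2 fold change of 0.14, opposite in sign to Cryab. Hspb8 stood at -0.07 and Hspb7, a muscle member with means of 26.0 and 47.2, at 0.50. Hspb2, which lies beside Cryab in the genome, stood at 0.10.

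The lists of lens regulators and of crystallin-named enzymes likewise held 0 called genes and 0 at an unadjusted p under 0.05. Of the 12 lens transcription factors 4 were higher and 8 lower, with a median of -0.07, among them Sox2 at -0.24, Prox1 at -0.50, Gata3 at 0.26 and Maf at 0.18. Of 6 genes named for crystallins of other kinds, mostly enzymes and their relatives, 1 was higher and 5 were lower, with a median of -0.13. Cryl1, a sugar dehydrogenase, stood at 0.20, the quinone reductase Cryz at -0.22, Crybg1 at -0.30 and the thyroid hormone binding protein Crym at -0.32. Of the 5 further lens crystallins 4 were lower, with a median of -0.24, and all 4 were highest on control replicate 5. Among them were Crygd at -0.44, Crygf at -0.45 and Cryga at -0.24.

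Across the 10 arrays the lens-type genes varied together only in part, and the correlations below are descriptions over arrays that share groups and scaling. Of 28 pairs of lens-type genes 5 had a Pearson correlation above 0.7, all of them among Cryaa, Cryba1, Crybb2 and Crygs. Cryba1 and Crybb2 had r = 0.94 and rho = 0.64, and r = 0.79 without control replicate 5. For Crybb2 with Crygs, r was 0.81 and rho 0.61, with r = 0.62 without it. Cryaa with Crybb2 had r = 0.84 and rho = 0.67 over 10 arrays but r = 0.26 without that array, so this relation rested on it. Without the 2 arrays farthest from the median of the first gene, the 3 values of r were 0.77, 0.37 and 0.05. The median over the 28 pairs was 0.40 with all arrays and 0.17 without control replicate 5.

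The neighbouring genes examined here did not vary closely together. Positions of the gamma crystallins outside the set were not examined. In RefSeq, Cryba4 lies next to Crybb1, with overlapping spans, and Crybb2 next to Crybb3, both on chromosome 5, and Cryab next to Hspb2 on chromosome 9. Over 10 arrays the first pair had r = 0.32 and rho = 0.16, the next r = 0.21 and rho = -0.08, and the last r = -0.27 and rho = -0.16. Crybb2 was 2.23-fold above the next array on control replicate 5, where its neighbour Crybb3 read 281, below 2 other arrays.

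Cryab varied differently with different lens-type genes. Its correlation was r = 0.60 (rho = 0.64) with Crybb1, which was 0.61 without control replicate 5, and r = 0.36 (rho = 0.28) with Cryba2. With Cryaa, Cryba1, Cryba4, Crybb2 and Crygs the values were below 0, and with Crybb3 r was 0.03. Its correlation with Crybb2 was r = -0.22 (rho = -0.54), with Cryba1 r = -0.30 (rho = -0.59), and with Cryaa r = -0.07 (rho = -0.25). With Cryba4 it was r = -0.29 (rho = -0.44), and with Crygs r = -0.48 (rho = -0.71). Without the 2 arrays of most extreme Cryab these r were 0.08, 0.02, 0.25, 0.23 and -0.13, in the order Crybb2, Cryba1, Cryaa, Cryba4 and Crygs. Without control replicate 5 they were -0.66, -0.71, -0.46, -0.33 and -0.77 in that order. Among 9228 other genes with a mean signal of at least 100, those most like Cryab over the 10 arrays were Cyb5b (r = 0.98), a cytochrome b5 of the outer mitochondrial membrane, Atg101 (0.95), an autophagy initiation factor, Lamp1 (0.94), a lysosomal membrane protein, Tbc1d20, Atrn, Arhgap18, Mboat7 and Tmem250-ps, the last at 0.92. Most like Crybb2 were Rnf166 (r = 0.89) and Pisd-ps3 (0.87), then Trip6, Entpd2, Ccl11, Loxl3, Cdsn and Slc37a1, down to 0.82. Most like Crygs were Dbndd1 (r = 0.90), Fyco1 (0.89), an autophagosome transport protein, Tmem131, Lsp1, Fhdc1, Cst6, Bin3 and Apoc2, down to 0.86. Without control replicate 5 the value for Rnf166 with Crybb2 was 0.74 and that for Entpd2 0.39, while Cyb5b with Cryab kept 0.98 and Dbndd1 with Crygs 0.88. The highest of many correlations over 10 arrays is high by selection, and these values have no test.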

How the data were processed

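RNA of 10 pools of mouse optic nerve head was measured on 1 array per pool. Per the labels' protocols, RNA was amplified and biotin-labelled with NuGEN kits. The authors deposited linear intensity values per probe set, from 0.69 to 20168. How they were summarised, background-corrected and scaled is not stated in the sources used, and array medians lay between 413.5 and 474.9. Of 22690 probe sets 64 were controls, 20380 had 1 gene symbol, 691 several and 1555 none in the platform annotation.

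For each of 12393 genes the probe set with the highest mean of log2(signal + 16) was taken. Groups were compared with limma 3.58.1 (lmFit, eBayes, R 4.3.3), without covariates or filter, with Benjamini-Hochberg adjustment over all genes. Single genes also had a two-sided exact permutation test. The fit was tested on simulated data with 200 changed genes. There it called 32.8% of log2 changes of 0.5 and 86.8% of those of 1. The changed genes were drawn at random from all genes, whose median within-group SD was 0.214 on the log2 scale. That SD was 1.11 for Cryba1, 0.727 for Crybb2, 0.543 for Cryaa and 0.458 for Crygs, but 0.0474 for Cryab. The rates are averages over genes and do not give the chance of a call for single crystallins. Python 3.11.15, pandas 2.3.3, SciPy 1.17.1 and Matplotlib 3.10.9 served for tables and plots.

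All 9 members are named whatever their value, up to 4 genes of a list by smallest p, and the 8 most correlated genes with a mean signal of at least 100. Genes outside this rule, such as Crygb, were named after their values were seen. The members and lists were chosen with earlier results of these data known. Leaving out control replicate 5 for spreads and correlations was chosen after seeing the data. The number of arrays limits the precision.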

Additional observations from a re-analysis of the deposited data

Results flagged for a closer look

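In 7 of 28 groups of 5 arrays, for the 9 crystallins and 5 further lens crystallins, the highest or lowest array lay far from the rest by the gap over the range of log2 values. Chance marks about 1 group in 20 in this way. These genes share arrays and several vary together, so the groups are not independent and the count is no test. In 5 of the 7 that array was control replicate 5, with a signal of 243 for Cryba1, 320 for Crybb2, 69.8 for Cryga, 220 for Crygb and 126 for Crygf. The same array was the high outlier of the controls in 61 of 12393 genes, 0.492%. The other 2 were Cryba2 on elevated pressure replicate 1, low at 16.4, and Cryba4 on elevated pressure replicate 4, high at 155.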

How the results depend on the processing

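Over 27 alternatives 0 genes were called by limma at an adjusted p of 0.05, and 0 crystallins. The lowest adjusted p of any gene was 0.481. Adding 1 in place of 16 before the log turned Cryba1 from -0.07 to 0.11. Leaving out 1 array at a time gave -0.39 to 0.0847 for Cryaa, -0.37 to 0.54 for Cryba1, -0.0487 to 0.22 for Cryba4, -0.23 to 0.34 for Crybb2 and -0.0881 to 0.28 for Crygs. Without the same replicate number in both groups, the sign also turned for Cryba1 (0.0058 without 3, 0.62 without 5), Cryaa (0.12 without 5), Crybb2 (0.44 without 5), Cryba4 (-0.0943 without 4) and Crygs (-0.0802 without 1, -0.0317 without 4). Cryab, Cryba2, Crybb1 and Crybb3 kept their negative sign in all alternatives run for them. Those for Cryab ran from -0.10 to -0.04, the latter with quantile normalization. Leaving out the genes under the median level kept Cryab and Crygs only. Without control replicate 5 the within-group SD fell from 1.11 to 0.609 for Cryba1, from 0.727 to 0.341 for Crybb2 and from 0.543 to 0.234 for Cryaa.

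Same-numbered arrays of the groups had correlated deviations of -0.02, 0.21, -0.08, 0.18 and -0.06, not all above 0.1, so pairing by number stayed undecided and was not used. With the replicate number as a block, 0 crystallins were called (lowest limma adjusted p 0.888), and with it as a random block 0 (0.899). The number of arrays and the unknown background limit what dim crystallins can show.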

Other observations

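Other genes were also far higher on control replicate 5 than on the other 9 arrays, among the 15 of largest excess. They included the immunoglobulin kappa genes Igk-V21, Igkv8-30 and Igk and the heavy chain gene Igha of antibody-producing cells, at 3.67, 3.33, 3.18 and 2.37 on the log2 scale. The serine protease gene Prss22 stood at 3.56, the AP-1 gene Fosl1 at 2.63, the secreted Wnt inhibitor gene Sfrp5 at 2.35, the neuropeptide gene Nts at 2.07 and the transcription factor gene Egr2 at 1.94. S100a3 and the cytokine gene Clcf1 stood at 1.94 and 1.87. The remaining 4 of the 15 were Cryba1, Crygf, Crybb2 and Crygb. These genes were named after their values were seen, and whether they share a source with the crystallins was not tested.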
